A study of Mus musculus with 12 samples.

Results

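The mevalonate branch of cholesterol synthesis, the steps that build squalene from acetyl-CoA, was followed here through 8 listed enzymes in mouse liver: Acat2, Hmgcs1, Mvk, Pmvk, Mvd, Idi1, Fdps and Fdft1. Members were chosen by gene symbol in the platform annotation, with the probe set of highest mean for each gene, and 6 of the 8 were measured among 22180 named genes. Each of the 6 had 1 probe set. Idi1 shared its probe set with a pseudogene symbol, and no probe set was listed under Acat2, so neither is given a value. The samples were livers of male C57BL6 mice aged 18 weeks, fed from 6 weeks of age for 12 weeks, with RNA of each on 1 Affymetrix array. The low-fat control group ate a diet with 10% of energy from fat and the high-fat control group one with 45%. The low-fat MSX and high-fat MSX groups ate the same diets with 0.5% (w/w) MSX, a maple syrup extract enriched in phenols. Each of the 4 groups had 3 arrays labelled as biological replicates, and the labels do not say whether any RNA was pooled.

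In this branch a thiolase and Hmgcs1, the cytosolic HMG-CoA synthase, supply the substrate of HMG-CoA reductase, whose product is mevalonate. Mvk and Pmvk phosphorylate mevalonate, Mvd decarboxylates it to isopentenyl diphosphate, and Idi1 isomerises that unit. Fdps, farnesyl diphosphate synthase, joins isoprene units into farnesyl diphosphate, the branch point to prenylated proteins, dolichol and ubiquinone, and Fdft1, squalene synthase, commits it to sterols. In liver the whole set is known to be transcribed under SREBP2, which is activated when membrane sterol is low and acts together with the factors NF-Y and Sp1.

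Promoter sequence was looked up because several members lay low in the same arrays. Entries were present in the RefSeq table (GRCm38.p6) for 6 of the 8 members, of which Pmvk had 2 entries. Fdps and Fdft1 had none. Hmgcs1, Mvk and Mvd, the measured members with 1 entry, are shown, and the matches in the other windows are given as counts. The windows are the 250 bases before the annotated start, chr13:119690101-119690350 on the plus strand, chr5:114444019-114444268 on the plus strand and chr8:122443423-122443672 on the minus strand. Capitals mark the NF-Y box CCAAT or its complement ATTGG, and the sterol response core CACCCCAC.
Hmgcs1: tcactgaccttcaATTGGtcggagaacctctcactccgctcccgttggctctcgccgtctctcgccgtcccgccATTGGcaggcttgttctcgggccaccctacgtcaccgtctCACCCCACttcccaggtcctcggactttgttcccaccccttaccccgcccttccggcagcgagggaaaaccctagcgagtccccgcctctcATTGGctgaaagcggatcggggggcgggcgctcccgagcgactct
Mvk: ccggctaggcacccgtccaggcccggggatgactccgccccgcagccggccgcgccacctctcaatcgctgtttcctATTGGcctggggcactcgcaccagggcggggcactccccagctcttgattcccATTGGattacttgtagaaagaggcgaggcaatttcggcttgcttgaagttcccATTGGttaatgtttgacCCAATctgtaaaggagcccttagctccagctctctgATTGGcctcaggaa
Mvd: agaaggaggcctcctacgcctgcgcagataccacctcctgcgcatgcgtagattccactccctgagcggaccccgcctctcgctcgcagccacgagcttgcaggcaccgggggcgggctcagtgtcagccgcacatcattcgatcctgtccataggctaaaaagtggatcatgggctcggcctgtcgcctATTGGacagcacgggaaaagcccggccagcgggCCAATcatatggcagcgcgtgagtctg
The Hmgcs1 window held 3 NF-Y boxes and 1 sterol response core, 129 bases before the start. Mvk held 5 NF-Y boxes and Mvd held 2, with 0 cores in either. Of the members not shown, the Pmvk entries held 1 and 0 NF-Y boxes, with 0 matches of the other motifs. Acat2 held 0 NF-Y boxes and 1 core, and Idi1 held 2 NF-Y boxes and 0 cores, each with 1 GC box. Of 32817 promoter windows of this length, 33.8% held an NF-Y box on either strand, 2.79% held 3 or more, and 2.58% held the core. The GC box GGGCGG, bound by Sp1, was present 2 times in Hmgcs1, 2 times in Mvk and 1 time in Mvd, against 32.7% of windows with a match. The E-box CACGTG was absent from these windows and present in 6.02% of all, and no match overlapped another. These are matches of letters, not measured binding.

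**Figure D1:**
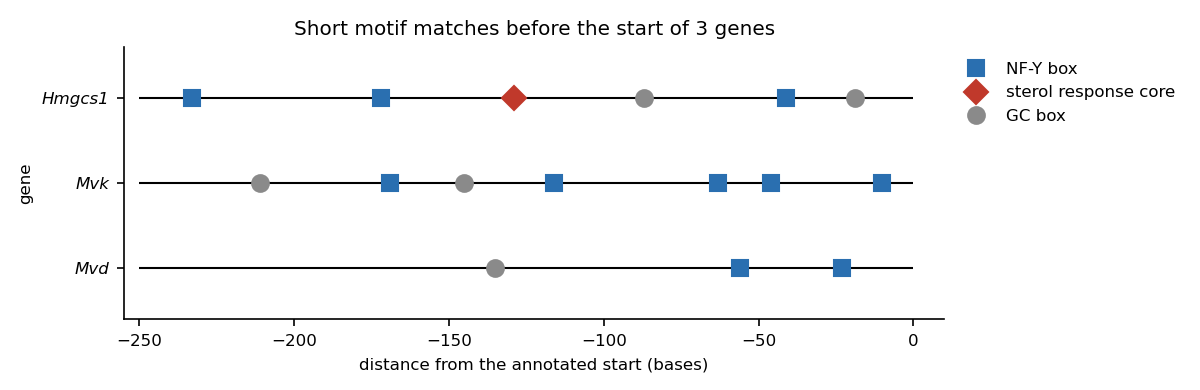
Positions of NF-Y boxes (squares), the sterol response core (diamond) and GC boxes (circles) on either strand, as bases before the annotated start, in the 250-base windows of Hmgcs1, Mvk and Mvd. Hmgcs1 has the only core, at 129 bases, and Mvk has the most NF-Y boxes, 5.

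Values are on the log2 scale of the deposited table, and array medians lay between 4.68 and 4.75. Correlations between arrays lay between 0.973 and 0.984 over all probe sets. The hepatocyte markers, 7 of 8 measured, had means between 9.81 (Serpina1a) and 13.92 (Alb), so the defining markers of the labelled tissue were present, and their mean lay within −0.10 to 0.04 of its average in every array. A probe set's value depends on its probes, so values are compared between groups and not between genes. In a piece of tissue, fewer cells of a type and less RNA per cell cannot be told apart.

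Fdps showed the widest separation of the low-fat control arrays from the rest. Its log2 values were 6.32, 6.54 and 6.57 in low-fat control replicates 1 to 3 and 8.01, 8.41 and 7.33 in low-fat MSX. They were 7.89, 7.70 and 7.74 in high-fat control and 8.05, 7.70 and 7.43 in high-fat MSX. All 9 other arrays lay above the 3 low-fat control arrays, by at least 0.76, and the other 3 groups overlapped one another.

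Hmgcs1 separated by diet. It was at 8.35, 8.12 and 8.58 in low-fat control and at 9.09, 9.07 and 8.30 in low-fat MSX. It was at 9.80, 9.46 and 9.74 in high-fat control and at 9.71, 9.33 and 9.56 in high-fat MSX. The 6 high-fat arrays lay above all 6 low-fat arrays, both low-fat groups overlapped, and so did both high-fat groups.

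The kinases Mvk and Pmvk also had their lowest values in the low-fat control group. Mvk was at 5.59, 5.83 and 5.43 there, at 6.17, 6.01 and 5.97 in low-fat MSX, at 6.32, 5.85 and 6.01 in high-fat control and at 6.33, 6.21 and 6.16 in high-fat MSX. The low-fat control group lay below the other 9 arrays by a gap of only 0.02, and high-fat control overlapped both MSX groups. Pmvk was at 6.86, 6.81 and 6.92 in low-fat control and at 7.56, 7.75 and 7.13 in low-fat MSX, the group with its highest mean. It was at 7.43, 6.95 and 7.17 in high-fat control and at 7.44, 7.09 and 6.96 in high-fat MSX. For Pmvk the gap below the other 9 arrays was 0.03, and those 3 groups overlapped. Low-fat control arrays below all others were thus seen in 3 of the 6 members, Fdps, Mvk and Pmvk, and in 0.771% of all genes.

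Mvd and Fdft1 differed less between groups. Mvd, the decarboxylase, had group means between 6.13 ± 0.16 (low-fat MSX) and 6.48 ± 0.13 (high-fat MSX; SD, n = 3). Its arrays ranged from 5.94 to 6.61, and low-fat control, at 6.25 ± 0.13, overlapped low-fat MSX and high-fat control. Fdft1, the last enzyme of the branch, had means of 9.14 ± 0.25 in low-fat control, 9.33 ± 0.16 in low-fat MSX, 9.46 ± 0.12 in high-fat control and 9.52 ± 0.18 in high-fat MSX. Neighbouring groups in that order overlapped.

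**Figure D2:**
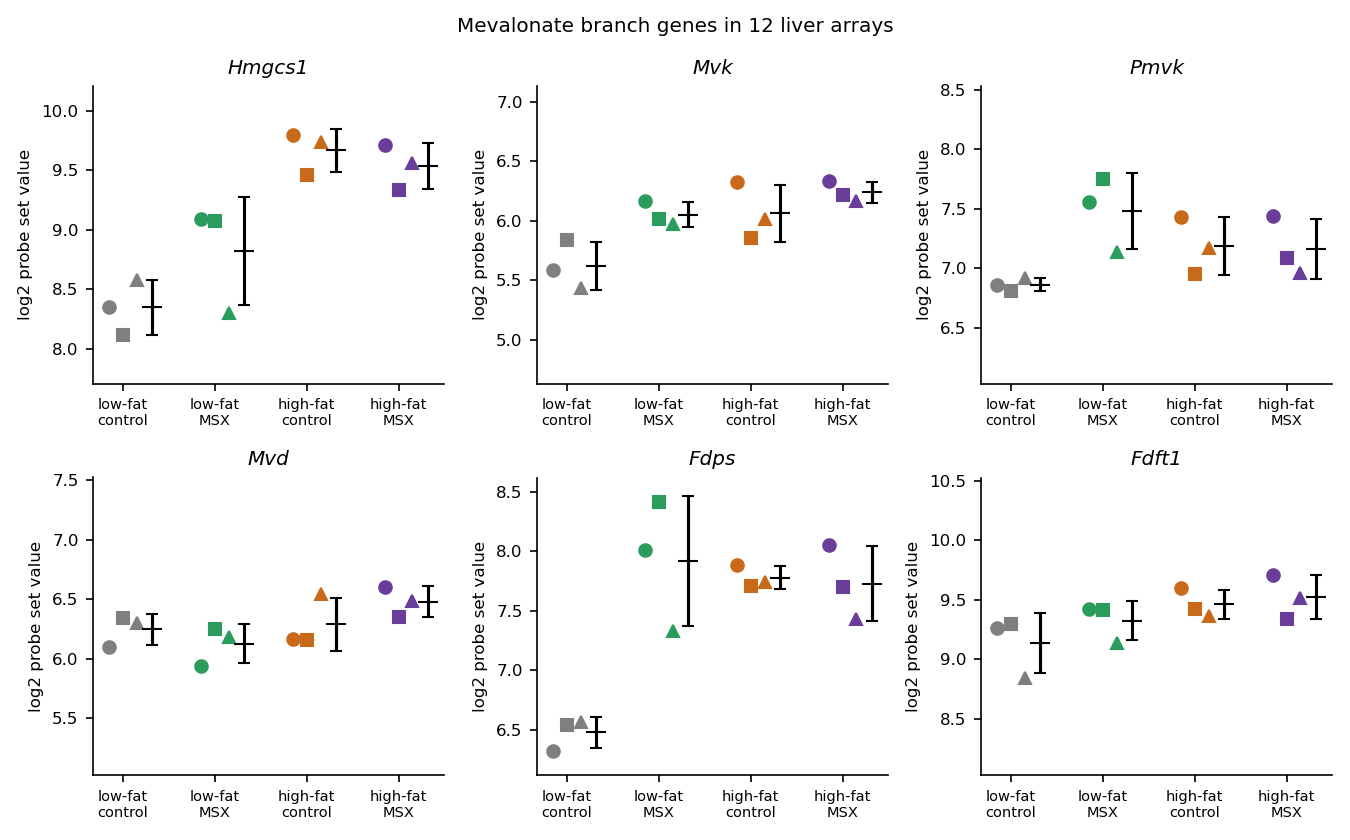
Log2 probe set values of the 6 measured members in each array, by group (circle, square and triangle for replicates 1, 2 and 3), with the group mean and SD (n = 3) as a black bar. All axes span the same number of log2 units. The low-fat control arrays of Fdps, at 6.32 to 6.57, lie below the other 9.

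The comparison of high-fat control with low-fat control addressed the response to the diet alone. Hmgcs1 and Fdps had the largest differences of the branch, 2.49-fold and 2.46-fold higher on the high-fat diet, and neither passed the threshold. On the log2 scale Hmgcs1 differed by 1.32 (SE 0.20, limma adjusted p = 0.0761) and Fdps by 1.30 (SE 0.23, limma adjusted p = 0.103). The kinases Mvk and Pmvk had log2 differences of 0.44 (SE 0.14) and 0.32 (SE 0.18), Fdft1 had 0.33 (SE 0.15) and Mvd had 0.04 (SE 0.14), with adjusted p of 0.563 or more. All 6 differences lay above 0, with a median of 0.39, against a median of 0.00 and 48.8% above 0 over all genes.

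In that comparison 0 of 6 members passed an adjusted p under 0.05 in limma, where 0.0180% of all genes did. At an unadjusted p under 0.05 4 members were higher (Hmgcs1, Fdps, Mvk and Fdft1) and 0 lower, against 3.44% of all genes higher and 3.34% lower. High-fat control arrays lay above all low-fat control arrays in 5 members, all but Mvd, against 5.29% of all genes.

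On the low-fat diet the question was how livers differ with and without the extract. Fdps rose 2.71-fold (95% confidence interval 1.93 to 3.81), by 1.44 on the log2 scale (SE 0.23, limma adjusted p = 0.0332). Pmvk had a log2 difference of 0.62 (SE 0.18, limma adjusted p = 0.313), Hmgcs1 of 0.47 (SE 0.20, limma adjusted p = 0.588) and Mvk of 0.43 (SE 0.14, limma adjusted p = 0.434). Fdft1 had 0.19 (SE 0.15) and Mvd −0.12 (SE 0.14). The median over the 6 was 0.45, against 0.00 over all genes.

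Fdps alone of 6 members (1 higher and 0 lower) thus passed the threshold, where 0.0631% of all genes were higher and 0.0947% lower. Groups did not overlap in 3 members, Fdps, Pmvk and Mvk, all higher with extract, against 7.13% of all genes. At an unadjusted p under 0.05 4 members were higher, against 4.03% of all genes.

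Low-fat MSX replicate 3 was the lowest of its group in 5 of the 6 members, all but Mvd, against 37.6% of all genes. Without it Fdps differed by 1.73 (limma adjusted p = 0.00422), Pmvk by 0.79 and Hmgcs1 by 0.73. Without any other of the 5 arrays the call of Fdps was lost: low-fat control replicate 1, 2 or 3 (adjusted p = 0.161, 0.147 and 0.0935 in limma) or low-fat MSX replicate 1 or 2 (0.112 and 0.0928). The difference itself stayed between 1.19 and 1.73. A fit on these 2 groups alone also gave no call (adjusted p = 0.152 in limma).

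Both comparisons share the 3 low-fat control arrays, so that their differences are not independent. Marker lists of cells other than hepatocytes had their lowest or second lowest group mean there, except for the 1 erythroid marker measured. As the mean deviation from each gene's average, the stellate cell and matrix markers (7 of 7 measured) lay at −0.27 to −0.04 in low-fat control, −0.03 to 0.24 in low-fat MSX, −0.14 to 0.84 in high-fat control and −0.42 to −0.01 in high-fat MSX. The cholangiocyte markers (4 of 5) lay at −0.18 to −0.14, −0.14 to 0.24, −0.05 to 0.51 and −0.10 to 0.07 in the same order of groups, and those of Kupffer cells and macrophages (7 of 7) at −0.36 to 0.19, −0.16 to 0.17, −0.67 to 0.48 and 0.07 to 0.09. Endothelial markers (5 of 5) lay at −0.38 to 0.11, −0.18 to 0.18, −0.30 to 0.29 and −0.14 to 0.23. The part of these markers in the members' differences was not tested. No gene of these lists passed the threshold in either comparison, and limma called 0 of the 7 hepatocyte markers.

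On the high-fat diet the same question was asked of the extract. No member was separated between these groups. Fdps differed by −0.05 on the log2 scale (95% confidence interval −0.54 to 0.44), Hmgcs1 by −0.13 (−0.57 to 0.31) and Pmvk by −0.02 (−0.41 to 0.36). Mvk differed by 0.17 (−0.13 to 0.48), Mvd by 0.19 (−0.11 to 0.49) and Fdft1 by 0.06 (−0.26 to 0.39). The intervals do not show equal levels, but for Fdps they leave out a rise of more than 1.36-fold with the extract on this diet.

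Of the 6 members, 0 passed the threshold in limma with extract on the high-fat diet, where 0.0361% of all genes did, and 0 had an unadjusted p under 0.05, where 6.99% did. Groups overlapped in all 6, while arrays stood apart upward in 6.70% and downward in 5.51% of all genes.

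The extract effect was then compared between the diets. Fdps had the largest difference, −1.49 (high-fat minus low-fat, SE 0.32, unadjusted p = 0.000448), which did not pass the threshold over all genes (limma adjusted p = 0.664). Pmvk had −0.64 (SE 0.25, unadjusted p = 0.0232, limma adjusted p = 0.955) and Hmgcs1 −0.60 (SE 0.29, limma adjusted p = 0.955). Mvk had −0.26, Fdft1 −0.13 and Mvd 0.31. With limma 0 members and 0% of all genes passed, and at an unadjusted p under 0.05 2 members were lower, Fdps and Pmvk, against 2.43% of all genes.

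High-fat MSX against low-fat MSX gave the diet response in the presence of the extract. Hmgcs1 was 1.64-fold higher on the high-fat diet, a log2 difference of 0.72 (SE 0.20, limma adjusted p = 0.977), with no overlap of the groups. Mvd had a log2 difference of 0.35 (SE 0.14), also without overlap, while Fdps and Pmvk had −0.19 (SE 0.23) and −0.32 (SE 0.18). In limma 0 members passed and 0% of all genes did. At an unadjusted p under 0.05 2 members were higher, Hmgcs1 and Mvd, against 2.39% of all genes, and groups stood apart upward in 2 members against 4.68% of all genes.

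**Figure D3:**
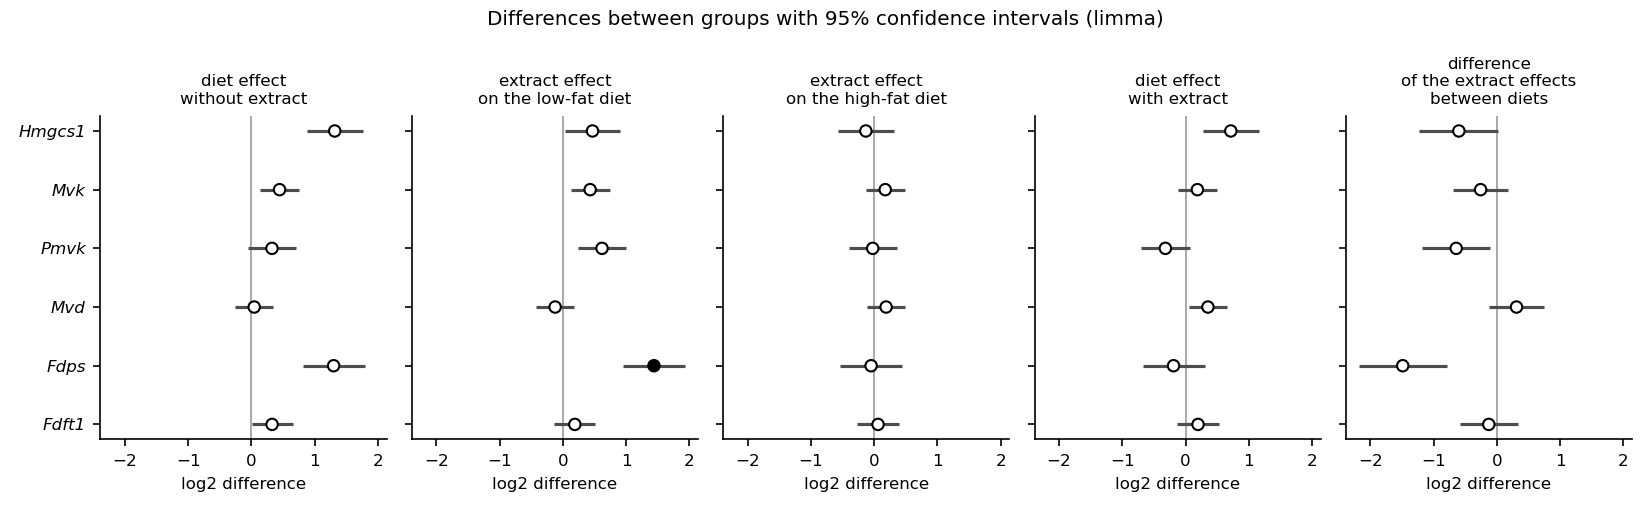
Log2 differences of the 6 members with 95% confidence intervals from limma in 4 pairwise comparisons and for the difference of the extract effects (high-fat minus low-fat). The filled point, Fdps with extract on the low-fat diet at 1.44, is the only one plotted with an adjusted p under 0.05.

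Averaged over control and MSX mice, Hmgcs1 rose 2.02-fold on the high-fat diet (95% confidence interval 1.63 to 2.51), by 1.02 on the log2 scale (SE 0.14, limma adjusted p = 0.0369). It was the 1 member of 6 past the threshold, where 0.0180% of all genes were higher. At an unadjusted p under 0.05 4 members were higher (Hmgcs1, Fdps, Mvk and Fdft1), against 2.88% of all genes. The other members had average diet differences of 0.55 (Fdps, SE 0.16, limma adjusted p = 0.576), 0.32 (Mvk), 0.26 (Fdft1), 0.20 (Mvd) and 0.00 (Pmvk). Left out in turn, each of the 9 arrays of low-fat control, high-fat control and high-fat MSX ended the call of Hmgcs1 (limma adjusted p from 0.0633 to 0.167). Each of the 3 arrays of low-fat MSX left it in place, and the difference stayed between 0.89 and 1.08.

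Averaged over both diets, the extract gave a log2 difference of 0.70 for Fdps (SE 0.16, limma adjusted p = 0.114), 0.30 for Mvk (SE 0.10) and 0.30 for Pmvk (SE 0.13). Hmgcs1 had 0.17, Fdft1 0.13 and Mvd 0.03. In limma 0 of 6 members passed, where 0.261% of all genes did, and at an unadjusted p under 0.05 3 were higher (Fdps, Mvk and Pmvk), against 5.20% of all genes. Without low-fat MSX replicate 3 Fdps passed (0.84, limma adjusted p = 0.0138), and with each other array left out it did not.

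The members varied together within groups to unequal degrees. As deviations from group means over the 12 arrays, Pmvk and Fdps had a Pearson r of 0.89 (Spearman 0.89), Hmgcs1 and Pmvk 0.80 (0.83) and Hmgcs1 and Fdps 0.73 (0.73). Leaving out the 2 arrays farthest from the median of the first gene of each pair gave 0.80, 0.73 and 0.60. Without the 3 low-fat MSX arrays, which held the widest deviations, r was 0.81, 0.67 and 0.36, so that the last of these rests largely on that group. Mvk and Fdft1 had an r of 0.71, and Mvd lay between −0.11 and 0.17 with each of the others. The remaining pairs lay between 0.17 (Hmgcs1 and Mvk) and 0.52 (Pmvk and Fdft1), so the 3 pairs given first were the highest. These values describe 12 arrays that share their processing, and deviations within a group of 3 sum to 0.

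**Figure D4:**
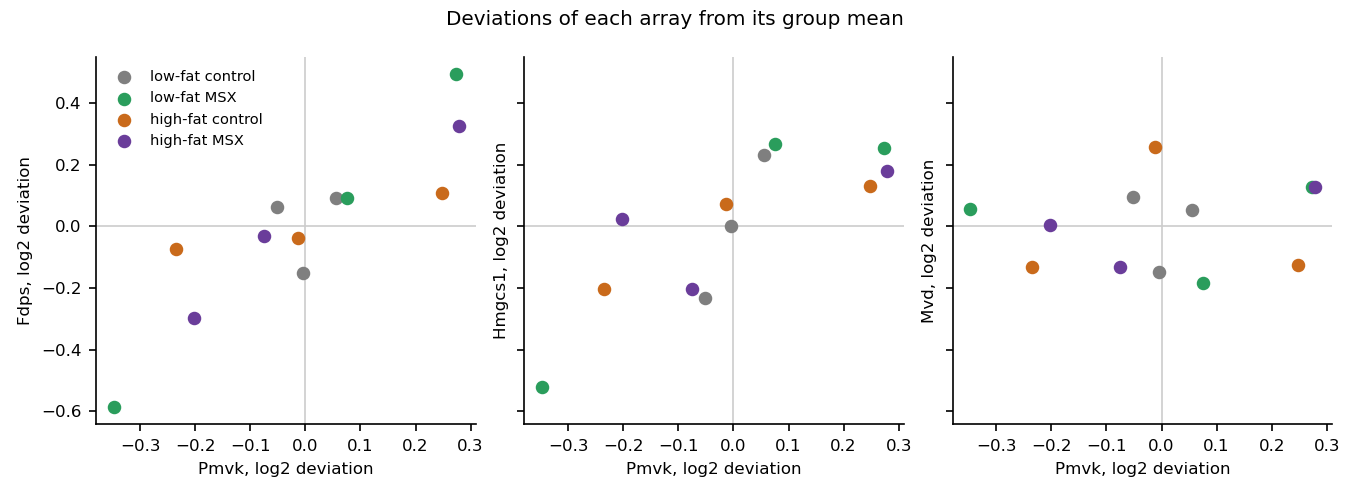
Log2 deviation of each of 12 arrays from its group mean, for Fdps, Hmgcs1 and Mvd against Pmvk, coloured by group. Fdps and Hmgcs1 lie along a line with Pmvk (r of 0.89 and 0.80), and Mvd is scattered (r of 0.13).

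Later and regulatory steps of sterol metabolism were counted beside the branch. Of the genes from squalene to cholesterol 10 of 11 were measured, and 2 rose and 0 fell on the high-fat diet without extract (Sqle and Cyp51), against 0.0180% of all genes called, with a median log2 difference of 0.49. With extract on the low-fat diet 3 rose and 0 fell (Sqle, Cyp51 and Nsdhl), against 0.0631% of all genes higher, with a median of 0.71. With extract on the high-fat diet 0 passed in limma and 1 had an unadjusted p under 0.05, near the 6.99% of all genes. That gene was Cyp51 (0.28, groups apart). All 10 differences lay above 0, against 51.6% of all genes, with a median of 0.10 against 0.006. Averaged over both diets the extract gave 2 calls, Cyp51 (0.70, limma adjusted p = 0.00198) and Nsdhl (1.05, limma adjusted p = 0.0244), where 0.261% of all genes were called. Nsdhl, a sterol dehydrogenase, rose by 1.58 (SE 0.25, limma adjusted p = 0.0338) with extract on the low-fat diet and had 0.51 (SE 0.25, limma adjusted p = 0.749) on the high-fat diet. Msmo1, a sterol C4 methyl oxidase, had 1.17 (SE 0.23, limma adjusted p = 0.0774) and 0.18. Low-fat MSX replicate 3 was the lowest of its group in all 10 of these genes. This list was written with earlier results of these arrays known.

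Of the genes of sterol sensing and uptake 10 of 13 were measured, and 1 passed the threshold with extract on the low-fat diet, where 0.0631% of all genes were higher. Insig1, which holds SREBP in the endoplasmic reticulum and is itself an SREBP target, rose by 1.38 (SE 0.20, limma adjusted p = 0.0173). It had 1.02 (SE 0.20, limma adjusted p = 0.172) on the high-fat diet without extract and 0.42 (SE 0.20, limma adjusted p = 0.716) with extract on the high-fat diet, with groups apart. Stard4, a cholesterol carrier, had 0.93 (SE 0.18, limma adjusted p = 0.0823) with extract on the low-fat diet and 0.59 (SE 0.18, limma adjusted p = 0.539) on the high-fat diet, without overlap in either. Averaged over both diets the extract gave 2 calls in this list: Insig1 rose by 0.90 (SE 0.14, limma adjusted p = 0.0135) and Stard4 by 0.76 (SE 0.13, limma adjusted p = 0.0231), where 0.261% of all genes were called. Srebf2, which encodes SREBP2, is given although its p was not among the lowest 4 of the list. This choice was made after its values were seen. With extract on the low-fat diet Srebf2 had 0.05 (SE 0.14) and Srebf1 had 0.85 (SE 0.20, limma adjusted p = 0.185). On the high-fat diet without extract they had 0.48 (SE 0.14, limma adjusted p = 0.499) and −0.15. With extract on the high-fat diet Srebf2 had −0.28 (SE 0.14, limma adjusted p = 0.75), with groups apart downward. Srebf1 had 0.42 (SE 0.20, limma adjusted p = 0.727) there, with overlap. In that comparison groups stood apart upward in 2 of the 10 genes and downward in 1, against 6.70% and 5.51% of all genes. Insig2, a relative of Insig1, had −0.76 (SE 0.19, limma adjusted p = 0.238) with extract on the low-fat diet, the opposite sign. In this list 0 of 10 passed on the high-fat diet with or without extract in limma. At an unadjusted p under 0.05 3 were higher and 0 lower for the diet, against 3.44% of all genes higher. For the extract 1 passed that p in either direction (Stard4, higher), near the 6.99% of all genes that did.

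**Figure D5:**
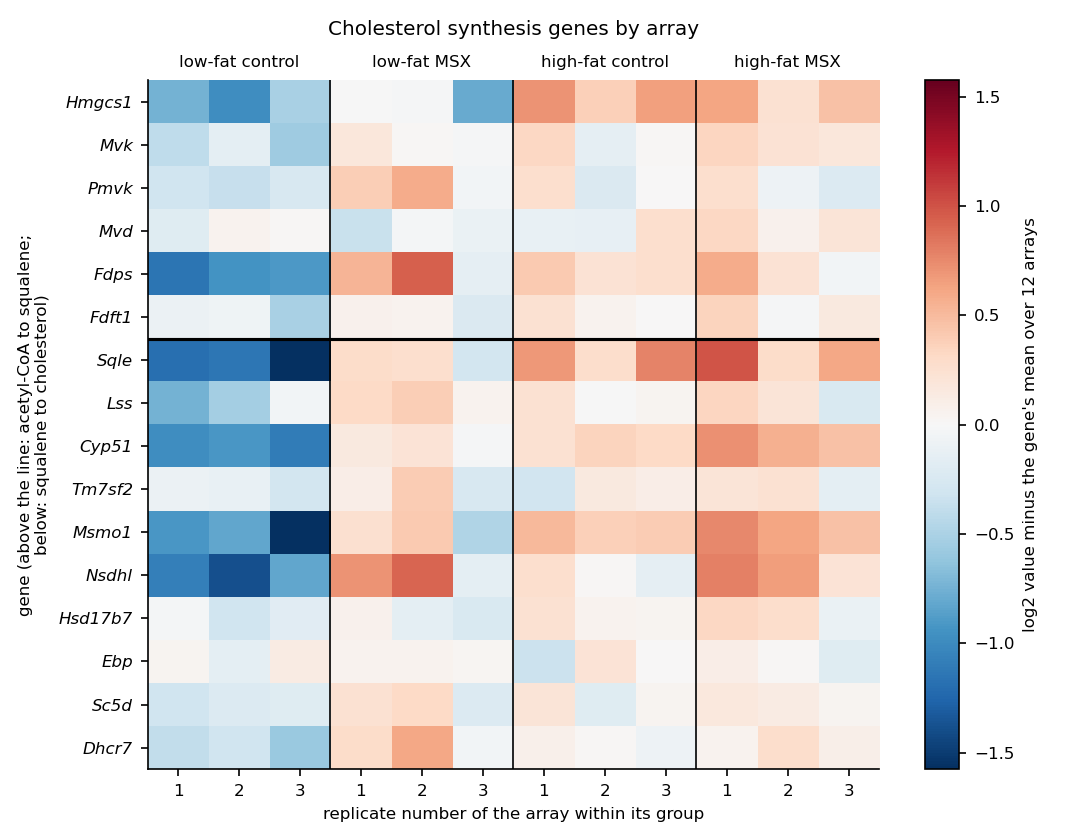
Log2 value minus the gene's mean over the 12 arrays, for the 6 measured members (above the line) and 10 genes from squalene to cholesterol (below), with arrays in columns by group and replicate. The low-fat control columns are low in Hmgcs1, Fdps, Sqle, Cyp51, Msmo1 and Nsdhl.

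The genes closest in pattern to the mean of the 6 members over the 12 arrays were Sqle (Pearson r 0.96, Spearman 0.87), Msmo1 (0.94 and 0.83), Cyp51 (0.91 and 0.67), Trappc3 (0.90 and 0.73) and Cyb5b (0.89 and 0.64). Sqle, squalene epoxidase, takes the product of Fdft1 and was at 4.84 ± 0.24 in low-fat control, 6.22 ± 0.33 in low-fat MSX, 6.71 ± 0.27 in high-fat control and 6.76 ± 0.35 in high-fat MSX (SD, n = 3). Cyb5b, a cytochrome b5 of the mitochondrial outer membrane, was at 9.15 ± 0.11, 9.85 ± 0.32, 9.76 ± 0.05 and 9.88 ± 0.09 in the same order. Trappc3, a subunit of a vesicle tethering complex, ranged over group means from 7.73 to 7.97. Each member was also set against the mean of the other 5: r was 0.85 for Fdps, 0.83 for Mvk, 0.77 for Hmgcs1, 0.76 for Fdft1, 0.65 for Pmvk and 0.21 for Mvd. These correlations take in the differences between groups and are a description of 12 arrays.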

How the data were processed

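Liver RNA, extracted with Trizol, was measured on Affymetrix arrays. The authors deposited 1 log2 value per probe set and array. The submitters' processing notes name the Transcriptome Analysis Console; its version, normalization and summarization were not stated in those notes. Values were used as deposited, with no filter, since array medians lay close together. The labels give no batch.

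Of 41345 probe sets, 25335 were listed in the platform annotation, 23521 of them with 1 symbol. These gave 22180 genes, each represented by its probe set of highest mean. Entrez identifiers of 23328 probe sets matched a GRCm38.p6 gene table and changed 0 symbols.

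A model of 4 group means was fitted to all 12 arrays using R 4.3.3 and limma 3.58.1 (functions lmFit and eBayes, two-sided, 8 residual and 5.18 prior degrees of freedom). P-values were adjusted by Benjamini-Hochberg over 22180 genes, with calls at an adjusted p under 0.05. They measure the spread between arrays labelled biological replicates, and the number of arrays limits the precision. The procedure was tested on simulated data. Alternatives covered probe sets, normalization, filter, variance model, samples, replicate block and each array left out.

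All members were described. In the other lists the 4 genes of lowest p, for extract against none on low fat or for diet in control mice, could be named, and for likeness the 5 genes of highest r. Members and lists were chosen with earlier results of these data known.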

Additional observations from a re-analysis of the deposited data

How the results depend on the processing

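The difference of the extract effects and both high-fat MSX comparisons gave 0 calls among the members under every alternative. For the diet effect without extract the count of called members went from 0 to 1 with genes above the median mean alone (Hmgcs1), with a trended, robust variance (Hmgcs1) and with a fit on the 2 groups compared (Fdps). For the extract on the low-fat diet it went from 1 to 0 in the fit on 2 groups. The average extract effect went from 0 to 1 (Fdps) with genes above the median mean and with array weights. With 1 array left out the counts ranged from 0 to 1 for the average diet effect, the average extract effect and the extract on the low-fat diet. The filter tests fewer genes; otherwise the cause was not tested. Counts over all genes went from 4 to 11 (diet without extract), 8 to 19 (extract, high-fat), 35 to 71 (extract, low-fat), 58 to 173 (average extract) and 5 to 11 (average diet) with the filter, and to 11, 28, 77, 151 and 11 with the trended, robust variance. The extract count on the low-fat diet was 23 with averaged probe sets, 20 with the replicate block and 10 with 2 groups, and on the high-fat diet it was 5 with the block and 2 with 2 groups. For the average extract effect it was 92 with array weights.

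Pmvk on average diet became −0.012 with quantile normalization and −0.013 with array weights. With extract on the high-fat diet Pmvk became 0.013 with centred arrays and 0.084 with array weights, and Fdps 0.053 with array weights. With 1 array left out the ranges that crossed 0 were −0.085 to 0.11 (Mvd, diet without extract), −0.0030 to 0.10 (Mvd, average extract), −0.084 to 0.071 (Pmvk, average diet), −0.22 to 0.016 (Fdft1, difference of extract effects), −0.48 to 0.058 (Fdps, diet with extract), and with extract on the high-fat diet −0.16 to 0.10 (Pmvk), −0.21 to 0.10 (Fdps) and −0.033 to 0.15 (Fdft1).

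The titles number replicates 1 to 3 in every group. Over all genes, r of the deviations of same-numbered arrays lay between −0.13 and 0.11, above 0.1 in 2 of 18 pairs. Both were pairs of high-fat control with high-fat MSX, where r was 0.11, 0.08 and 0.11 for replicates 1 to 3. Arrays of different numbers were not compared, so these values do not decide whether arrays were paired. With the replicate block the average diet effect had 0 called members, with Hmgcs1 at an adjusted p of 0.082 by limma, and the call of Fdps on the low-fat diet was kept.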

Other observations

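Of 11 genes that draw on farnesyl diphosphate for dolichol, ubiquinone and protein prenylation, 10 were measured, and limma called 0 in the diet effect without extract and 0 with extract on either diet, with 1 higher at an unadjusted p under 0.05 in each. Over all genes 3.44% were higher at that p for the diet and 4.03% for the extract on the low-fat diet. For the extract on the high-fat diet 771 of 22180 were higher, and 6.99% passed in either direction. In a list of 10 measured genes 1 is the smallest count that can be seen, so no difference from these shares is read from it. Dhdds, a subunit of the dolichol-building prenyltransferase, had a log2 difference of 0.42 (SE 0.13, limma adjusted p = 0.412) with extract on the low-fat diet and 0.30 (SE 0.13, limma adjusted p = 0.717) with the high-fat diet alone. Ggps1, which makes geranylgeranyl diphosphate, had 0.23 and 0.11. With extract on the high-fat diet the 1 gene at that unadjusted p was Rabggta, of protein prenylation. It had 0.36 (SE 0.11, limma adjusted p = 0.563), with groups apart. Groups stood apart upward there in 2 of the 10 genes and downward in 0, against 6.70% and 5.51% of all genes.

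The 3 genes of cytosolic acetyl-CoA supply were all measured, and limma called 0, with 2 higher at an unadjusted p under 0.05 with extract on the low-fat diet (Acly and Acss2), against 4.03% of all genes. Acly, ATP citrate lyase, had 0.52 (SE 0.14, limma adjusted p = 0.298) there and −0.01 (SE 0.14) with the high-fat diet alone. Acss2, a cytosolic acetyl-CoA synthetase, had 0.51 (SE 0.19, limma adjusted p = 0.51) and 0.06. Among relatives of the members, Acat1, a mitochondrial thiolase, had −0.17 with extract on the low-fat diet and Acat3, a thiolase closely related to Acat2, had 0.27, with adjusted p by limma of 0.72 and 0.706.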
